A study of Mus musculus with 2 samples.

Results

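The genes described here are the heat shock proteins and cochaperones of the deposited table: the HSP70, HSP90 and small heat shock protein families, the J-domain cochaperones (J-proteins), the BAG proteins, the CCT chaperonin subunits, the heat shock factors and the HSP70-HSP90 partners St13, Stip1 and Ahsa1. They were chosen by gene name alone, which took 70 of the 12707 genes in the table. The study measured RNA in CD45-negative cells sorted from Py8119 tumours, a mouse mammary line derived from MMTV-PyMT tumours. The tumours grew in mice with a knockout of Mtdh, the gene of metadherin (KO host, or KO), or in Mtdh wild-type mice (WT host, or WT), while the injected cells themselves carried wild-type Mtdh in both groups. There was 1 library for each host, with 23381746 recovered reads for the KO host and 26069373 for the WT host. The labels state neither the sex and age of the hosts, nor the knockout allele, nor how many tumours went into a library, and the design text speaks of paired samples without saying what was paired. Mtdh itself had 23130 reads in the KO-host library and 28376 in the WT-host library (ratio 0.909), which does not check the host genotype because the tumour cells carry the gene. With 1 library per group no difference below has a replicate check, no test was possible, and each value compares these libraries and not the host genotypes.

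Heat shock proteins are chaperones that keep other proteins folded. HSP70 binds exposed hydrophobic stretches in a cycle driven by ATP, in which J-proteins deliver the client and start hydrolysis, and BAG and HSP110 proteins release the nucleotide. Clients such as kinases and steroid receptors pass from HSP70 to HSP90 through the adaptor Stip1, while the CCT ring folds actin and tubulin. Heat shock factor 1 (Hsf1) switches on the inducible members in response to heat, proteotoxic drugs and handling of tissue, and tumour cells often depend on this system.

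Most of this machinery was present at close to the same level in both libraries. Together the 70 genes took 1.48% of recovered reads in the KO-host library and 1.44% in the WT-host library. All 16 members with 10000 or more reads over both libraries lay between 0.778 and 1.28 in their ratio of RPM (recovered reads scaled to a library of 1000000 reads), KO host over WT host. Of the members with 1000 or more reads, Hspa1b, an inducible HSP70, alone was past 2-fold: it was 2.29-fold lower in the KO-host library. A few members with low read numbers differed by more than 2-fold in either direction, about as often as other genes of the same depth.

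The label of the group speaks of the cytosol, but the naming rule also takes proteins of other compartments. Hspa9, Hspd1, Hspe1, Dnaja3 and Dnajc19 work in mitochondria, and Dnajc3 and Dnajc10 in the endoplasmic reticulum. Hspb11, also known as Ift25, is a subunit of the intraflagellar transport complex. The mitochondrial chaperones Hspa9, Hspd1 and Hspe1 are therefore described as a class of their own.

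A member was counted as differing on the deposited scale when its log2(FPKM + 1) value (fragments per kilobase of genomic span, scaled to library size) differed by 1 or more and its mean over both libraries was 1 or more. Of the 44 members with such a mean, 0 were higher in the KO-host library by this rule, where 2.31% of all such genes were, and 1 was lower (Hspa1b), where 2.64% of all such genes were. A second rule used the RPM ratio, at 2-fold or more, among genes with 100 or more reads over both libraries and reads in both. This rule could be applied to 62 members. Of these, 3 were 2-fold higher in the KO-host library (background 8.39%) and 6 were 2-fold lower (background 11.3%), so 14.5% of members passed in either direction, where 19.7% of all 10647 such genes did. The median log2 read ratio was -0.05 over the 62 members and -0.06 over all such genes. Of the 62 members 29 were above 1 and 33 below, and of all such genes 4851 were above and 5796 below. This split of all genes is the background for the counts above and below 1 given by class and list. The counting interval of the ratio lay above 1 for 24 of the 62 members, below 1 for 27 and spanned 1 for 11. Over all such genes it lay above 1 for 36.7% and below 1 for 45.5%, so the members were close to the background here too. The remaining 8 members had 14 to 64.5 reads over both libraries or were listed at 0 in 1 of them.

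**Figure D1:**
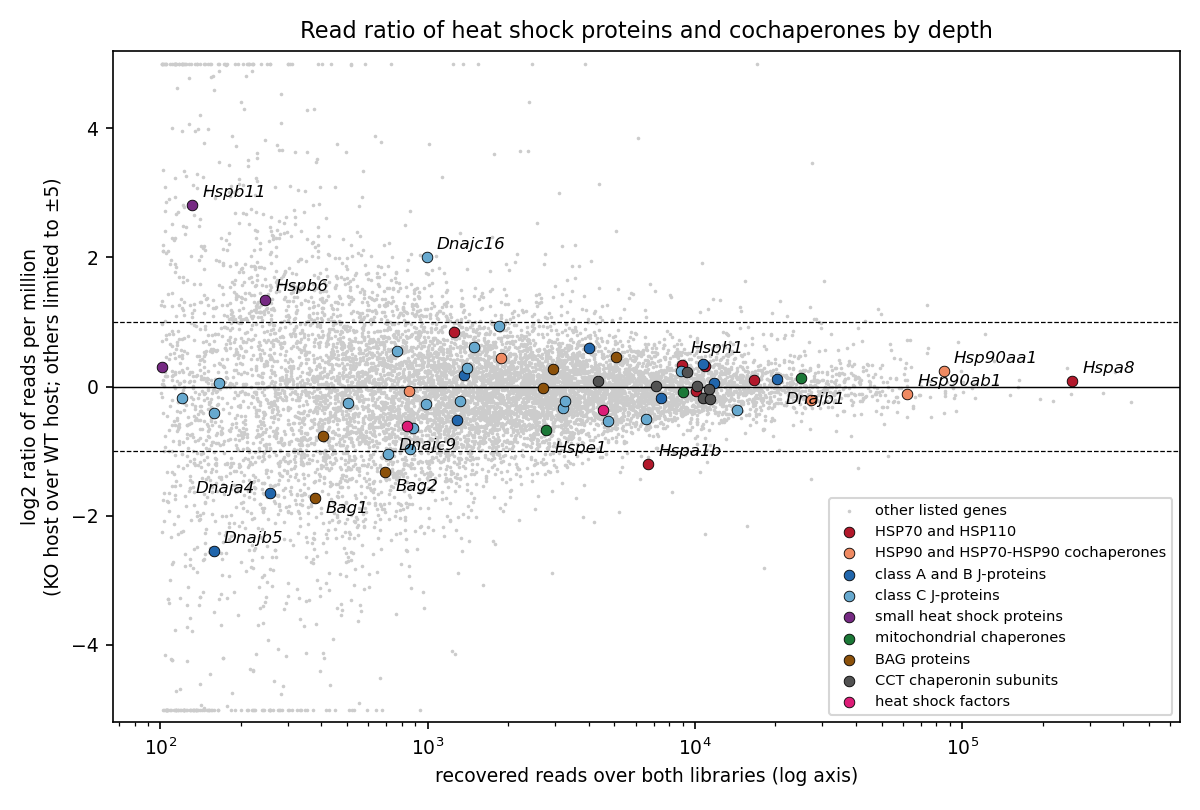
Each point is a gene with 100 or more recovered reads over both libraries: the x axis gives those reads (log axis) and the y axis the log2 ratio of RPM, KO host over WT host, with members coloured by role, other genes in grey (limited to 5 in size) and dashed lines at 2-fold. The spread of all genes narrows with depth, and Hspa1b is the only member past a dashed line among those with 1000 or more reads.

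How far a ratio can be read depends on depth. Among all genes with 100 to under 300 reads over both libraries, 55.6% were past 2-fold, and 4 of 8 members were. From 300 to under 1000 reads the share was 32.7%, and 4 of 12 members were past it. From 1000 to under 3000 reads 0 of 11 members and 11.3% of all genes were past 2-fold. From 3000 to under 10000 reads it was 1 of 15 members and 3.18% of all genes, and from 10000 reads 0 of 16 members and 2.64% of all genes. The counting intervals printed below come from read numbers alone. They do not hold the spread between tumours, sorts or library preparations.

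Among the HSP70 proteins, Hspa8, the constitutive cytosolic HSP70 (Hsc70), was by far the most abundant. It had 125473 reads in the KO-host library and 131933 in the WT-host library, which was 36.3% of the reads of all members in KO and 35.3% in WT, and its RPM ratio was 1.06 (95% counting interval 1.05 to 1.07). Per kilobase of its longest protein-coding transcript it stood at 2242 RPM in the KO-host library and 2114 RPM in the WT-host library, first in both among the 69 members with a transcript length. Of all 75-base stretches of its transcript, 68.6% also occur in transcripts of other genes, from 11 genes in all, so its level is uncertain. Hspa4, an HSP110-type nucleotide exchange factor, had 8190 reads in KO and 8479 in WT (1.08). Its relative Hspa4l had 5756 reads in KO and 5163 in WT (1.24), and Hsph1, the inducible HSP110, had 4737 reads in KO and 4203 in WT (1.26, 95% counting interval 1.21 to 1.31). Hspa13, a microsomal HSP70, was at 0.951. Hspa14, which works at the ribosome, was at 1.80 with 777 reads in KO and 480 in WT, and it overlaps Gm45902 on the same strand. Hspa2, the HSP70 of male germ cells, had only 2 reads in KO and 12 in WT. The HSP70 and HSP110 class had a median ratio of 1.08 over 7 members, with 5 above 1 and 2 below.

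Hspa1b (ENSMUSG00000090877, mm39 chromosome 17, 35175412 to 35178215, minus strand) encodes the stress-inducible HSP70 and is a classical target of Hsf1. It had FPKM 28.6 in the KO-host library and FPKM 65.6 in the WT-host library, with 1875 recovered reads in KO and 4791.5 in WT. The read ratio was 0.436 (95% counting interval 0.413 to 0.460) and the log2(FPKM + 1) difference was -1.17. Of the 2486 genes with 3000 to under 10000 reads over both libraries, 17 (0.684%) had a ratio as low or lower. This share is a rank and not a test, because Hspa1b was picked out by this ratio from the members, 15 of which had that depth. Its place among members by level per kilobase of transcript was 25 in the KO-host library and 17 in the WT-host library. Hspa1b has a neighbour of nearly the same sequence, Hspa1a, which is not among the listed genes. Of the 75-base stretches of the Hspa1b transcript, 55.8% also occur in the Hspa1a transcript. The reads of Hspa1b in the WT-host library were not whole within 0.1 read, and how reads were divided between the copies was not tested. With genes of fractional reads left out, Hspa1b is no longer in the set and 0 members pass the log2 rule.

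Values of 6 other members that Hsf1 is known to switch on lay within 2-fold on either side of 1. They were picked as examples and not as a complete list. Most genes of any kind with 1000 or more reads over both libraries also lay within 2-fold. Dnajb1 (HSP40), the J-protein that works with Hspa1b, had 10020 reads in the KO-host library and 10322 in the WT-host library (ratio 1.08, 95% counting interval 1.05 to 1.11). Hsp90aa1, the inducible HSP90, was at 1.18, Hsph1 at 1.26 and Bag3 at 1.20. Bag3 links HSP70 to autophagy, and had 1534 reads in KO and 1421 in WT. Hspd1 and Hspe1, the mitochondrial members that Hsf1 also activates, were at 0.946 and 0.629. Dnaja4, a heat-inducible J-protein with few reads, was 3.12-fold lower and is described with its class.

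Promoter sequences are shown for Hspa1b, Hsph1 and Hspe1, chosen as known Hsf1 targets with ratios on both sides of 1. Hspa1b (0.436) and Hspe1 (0.629) lay below 1 and Hsph1 (1.26) above. Hspe1 forms a divergent pair with Hspd1 (0.946), for which no window is printed. Each window covers 250 bases before to 50 bases after an annotated start, 5′ to 3′ on the strand of the gene (RefSeq, GRCm38.p6, a build other than that of the deposited table), and capitals mark GAANNTTC or TTCNNGAA, a pair of adjoining heat shock element units. Both motifs read the same on either strand, and overlapping matches form a run of 3 or more units. The windows are chr17:34959189-34959488 (minus strand) for Hspa1b, chr5:149636266-149636565 (minus strand) for Hsph1 and chr1:55087898-55088197 (plus strand) for Hspe1.
Hspa1b: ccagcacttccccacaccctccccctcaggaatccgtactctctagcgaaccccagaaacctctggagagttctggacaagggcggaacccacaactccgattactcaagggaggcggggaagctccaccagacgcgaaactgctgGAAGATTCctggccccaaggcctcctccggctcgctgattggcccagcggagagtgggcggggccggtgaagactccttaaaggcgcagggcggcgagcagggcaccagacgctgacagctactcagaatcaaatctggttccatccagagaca
Hsph1: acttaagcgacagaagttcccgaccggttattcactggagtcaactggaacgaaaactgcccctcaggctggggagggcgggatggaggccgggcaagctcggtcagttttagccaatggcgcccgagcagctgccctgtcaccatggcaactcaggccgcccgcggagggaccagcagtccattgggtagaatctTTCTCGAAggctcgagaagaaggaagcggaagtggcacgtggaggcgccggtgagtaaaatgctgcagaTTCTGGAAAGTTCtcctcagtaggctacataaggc
Hspe1: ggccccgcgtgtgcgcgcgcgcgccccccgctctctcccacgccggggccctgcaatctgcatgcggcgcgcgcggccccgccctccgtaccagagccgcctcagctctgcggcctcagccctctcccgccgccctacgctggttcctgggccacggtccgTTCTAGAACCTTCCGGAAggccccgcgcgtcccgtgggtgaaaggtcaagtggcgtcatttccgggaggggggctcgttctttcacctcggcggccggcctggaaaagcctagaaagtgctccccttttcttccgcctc

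The Hspa1b window holds 1 match, which begins at position -104 relative to the start, and the Hsph1 window holds 3, at positions -54, 16 and 21, of which the last pair overlaps. In the Hspe1 window 3 overlapping matches begin at positions -89, -84 and -79. A window was found for 53 of the 70 members. Of these, 16 (30.2%) held a match in at least 1 window, against 14.3% of the 10034 genes of the deposited table with a window, and 4 (7.55%) held overlapping matches, against 0.628% of those genes. The 4 are Hsph1, Dnajb6, Hspd1 and Hspe1, whose read ratios ran from 1.51 for Dnajb6 to 0.629 for Hspe1. Because Hspd1 and Hspe1 lie head to head, their windows may hold the same run, counted for both genes, which was not checked. A match describes letters in these windows only.

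Of the HSP90 proteins, Hsp90aa1 had 43882 reads in the KO-host library and 41352 in the WT-host library (ratio 1.18, 95% counting interval 1.17 to 1.20). Hsp90ab1, the constitutive form, had 28215 reads in KO and 34042.5 in WT (0.924, 0.910 to 0.939). The forms thus lay on either side of 1, and their order by level per kilobase of transcript differed: Hsp90aa1 stood at 572 RPM per kilobase and Hsp90ab1 at 479 in the KO-host library, against 483 and 518 in the WT-host library. For Hsp90aa1, 53.1% of 75-base stretches also occur in other genes. St13 (Hip), which steadies the HSP70 complex, was at 0.870 with 11937 reads in KO and 15297 in WT. Stip1 (Hop), the adaptor between HSP70 and HSP90, was at 1.36 with 1038 reads in KO and 848 in WT, and Ahsa1, which stimulates the HSP90 ATPase, was at 0.954 with 394 reads in KO and 461 in WT. In this class 0 of 5 genes were past 2-fold. Of all genes with 10000 or more reads over both libraries, where Hsp90aa1, Hsp90ab1 and St13 lie, 2.64% were past it. The share was 11.3% from 1000 to under 3000 reads, where Stip1 lies. It was 32.7% from 300 to under 1000 reads, where Ahsa1 lies. The count of 0 therefore does not set this class apart from other genes of its depth.

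**Figure D2:**
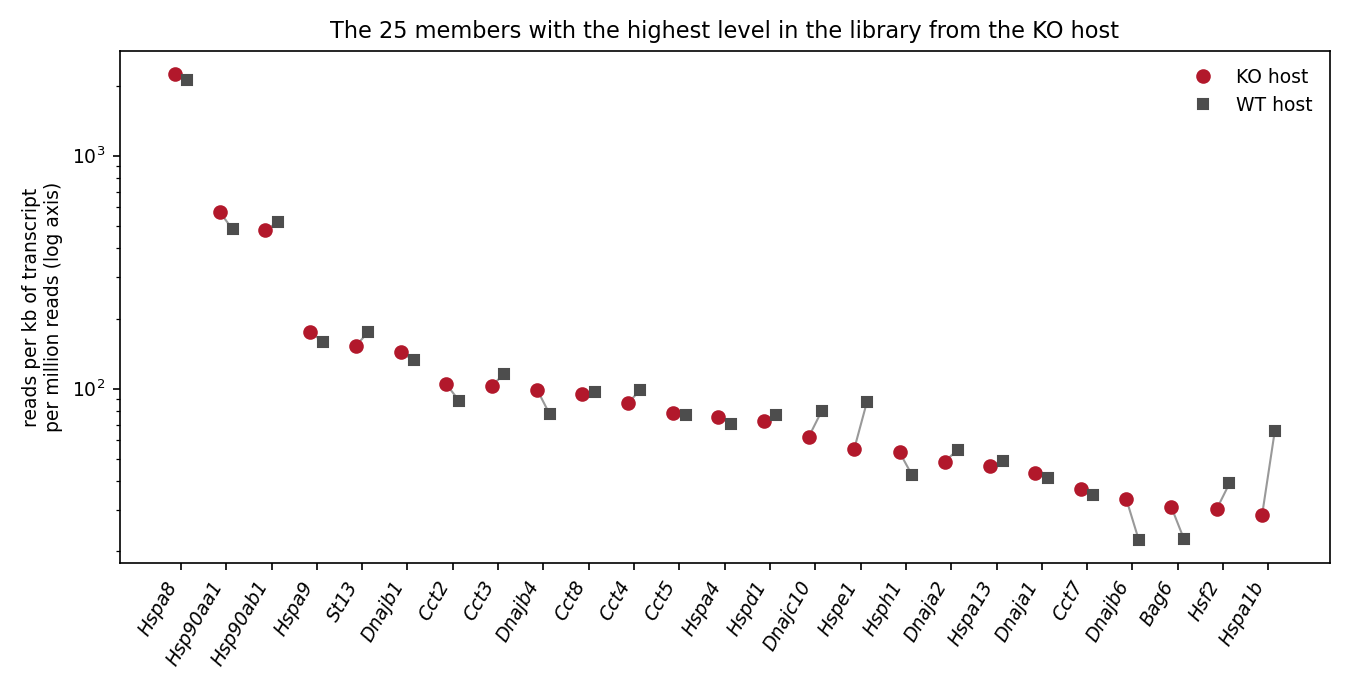
Level of the 25 members that were highest in the KO-host library, as RPM per kilobase of the longest protein-coding transcript (log axis), with a circle for the KO host and a square for the WT host. Hspa8, Hsp90aa1 and Hsp90ab1 lead in both libraries, and Hspa1b has the widest gap of those shown. Cct6a is not included because no transcript length was matched.

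Among J-proteins of classes A and B, the general partners of HSP70, 5 of the 9 with 100 or more reads were above 1 and 4 were below. Dnaja1, with 5684 reads in KO and 6079 in WT, was at 1.04, and Dnaja2 at 0.889. Dnajb4 was at 1.28 with 5710 reads in KO and 4983 in WT. Dnajb6, a suppressor of protein aggregation, was at 1.51 with 2302 reads in KO and 1704 in WT. Of the 75-base stretches of Dnajb6, 39.5% also occur in transcripts of other genes, from 9 genes in all. Dnajb2, a J-protein best known in neurons, was at 1.13 with 687 reads in KO and 680 in WT. Dnaja3, of the mitochondrial matrix, was at 0.697 with 496 reads in KO and 793 in WT. The members past 2-fold in this class were Dnaja4 (mm39 chromosome 9, 54606157 to 54623600), with 57.4 reads in the KO-host library and 199.8 in the WT-host library, 3.12-fold lower (95% counting interval 2.33 to 4.30), and Dnajb5 (chromosome 4, 42949814 to 42959426), with 21 reads in KO and 137 in WT, 5.85-fold lower (3.68 to 9.76). Dnaja4 overlaps Wdr61 on the opposite strand, and 51.5% of its 75-base stretches occur there, so reads from those stretches cannot be told from those of Wdr61 without strand. Dnajb7, a J-protein gene whose span overlaps Xpnpep3, was listed at 17 reads in the KO-host library and at 0 in the WT-host library.

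Class C J-proteins are a mixed group whose members carry a J domain beside other functions. Of the 20 with 100 or more reads, 7 were above 1 and 13 below, with a median log2 read ratio of -0.24. Over all genes of that depth 4851 were above 1 and 5796 below, with a median of -0.06. Dnajc10 (ERdj5), a disulfide reductase of the endoplasmic reticulum, had the most reads, 5884 in the KO-host library and 8433 in the WT-host library (0.778). Dnajc13, an endosomal protein, was at 1.18 with 4555 reads in KO and 4312 in WT. Dnajc5, the cysteine string protein of secretory vesicles, was at 0.705. Dnajc2 (zuotin), which sits on the ribosome with Hspa14, had 1170 reads in KO and 682 in WT (1.91, 95% counting interval 1.74 to 2.11), with a counting interval that overlaps that of Hspa14 (1.61 to 2.03).

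Most other class C members with 100 or more reads were within 2-fold, apart from Dnajc16 and Dnajc9, which are described after them. Dnajc1, of the endoplasmic reticulum membrane, had 1821 reads in the KO-host library and 2928 in the WT-host library (0.693), and Dnajc3 (p58IPK), an inhibitor of the kinase PERK, had 1419 in KO and 1845 in WT (0.858). Dnajc18 had 1329 reads in KO and 1867 in WT (0.794), and Dnajc25 had 320 in KO and 558 in WT (0.640). Members above 1 were Dnajc11, of the mitochondrial inner membrane organising system, with 861 reads in KO and 629 in WT (1.53), Dnajc19, of the mitochondrial import motor, with 437 in KO and 333 in WT (1.46), and Dnajc8, which is found with splicing factors, with 734 in KO and 668 in WT (1.23). Dnajc7, which also binds HSP90, had 420 reads in KO and 565 in WT (0.829), Dnajc14 had 574 in KO and 745 in WT (0.860), and Dnajc21, a ribosome biogenesis factor, had 216 in KO and 287 in WT (0.839). Dnajc22, Dnajc28 and Dnajc30 had 120 to 166 reads over both libraries, and the counting interval of each spanned 1.

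Among class C members with 100 or more reads the largest ratio was that of Dnajc16 (chromosome 4, 141487500 to 141518243), a J-protein of the endoplasmic reticulum, with 775 reads in the KO-host library and 215 in the WT-host library, 4.02-fold higher (95% counting interval 3.45 to 4.70). Its log2(FPKM + 1) difference was 0.71, under the size rule, because FPKM over its long span was only 1.08 in KO and 0.268 in WT. Dnajc9 (chromosome 14, 20434706 to 20438979), a histone chaperone of dividing cells, had 215 reads in KO and 496 in WT and was 2.07-fold lower (1.76 to 2.44). Its call ends when ratios are centred on the median of all genes. Dnajc27, a Rab-like GTPase with a J domain, was just inside at 0.513. Among class C genes under 100 reads, Dnajc15 had 59 reads in the KO-host library and 1 in the WT-host library (ratio 65.8, 95% counting interval 11.4 to 2642). Dnajc12 had 3.45 reads in KO and 61.0 in WT and Dnajc17 had 5 in KO and 47 in WT. Dnajc6 was listed at 37 reads in KO and 0 in WT, and Dnajc4 at 0 in KO and 42 in WT.

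**Figure D3:**
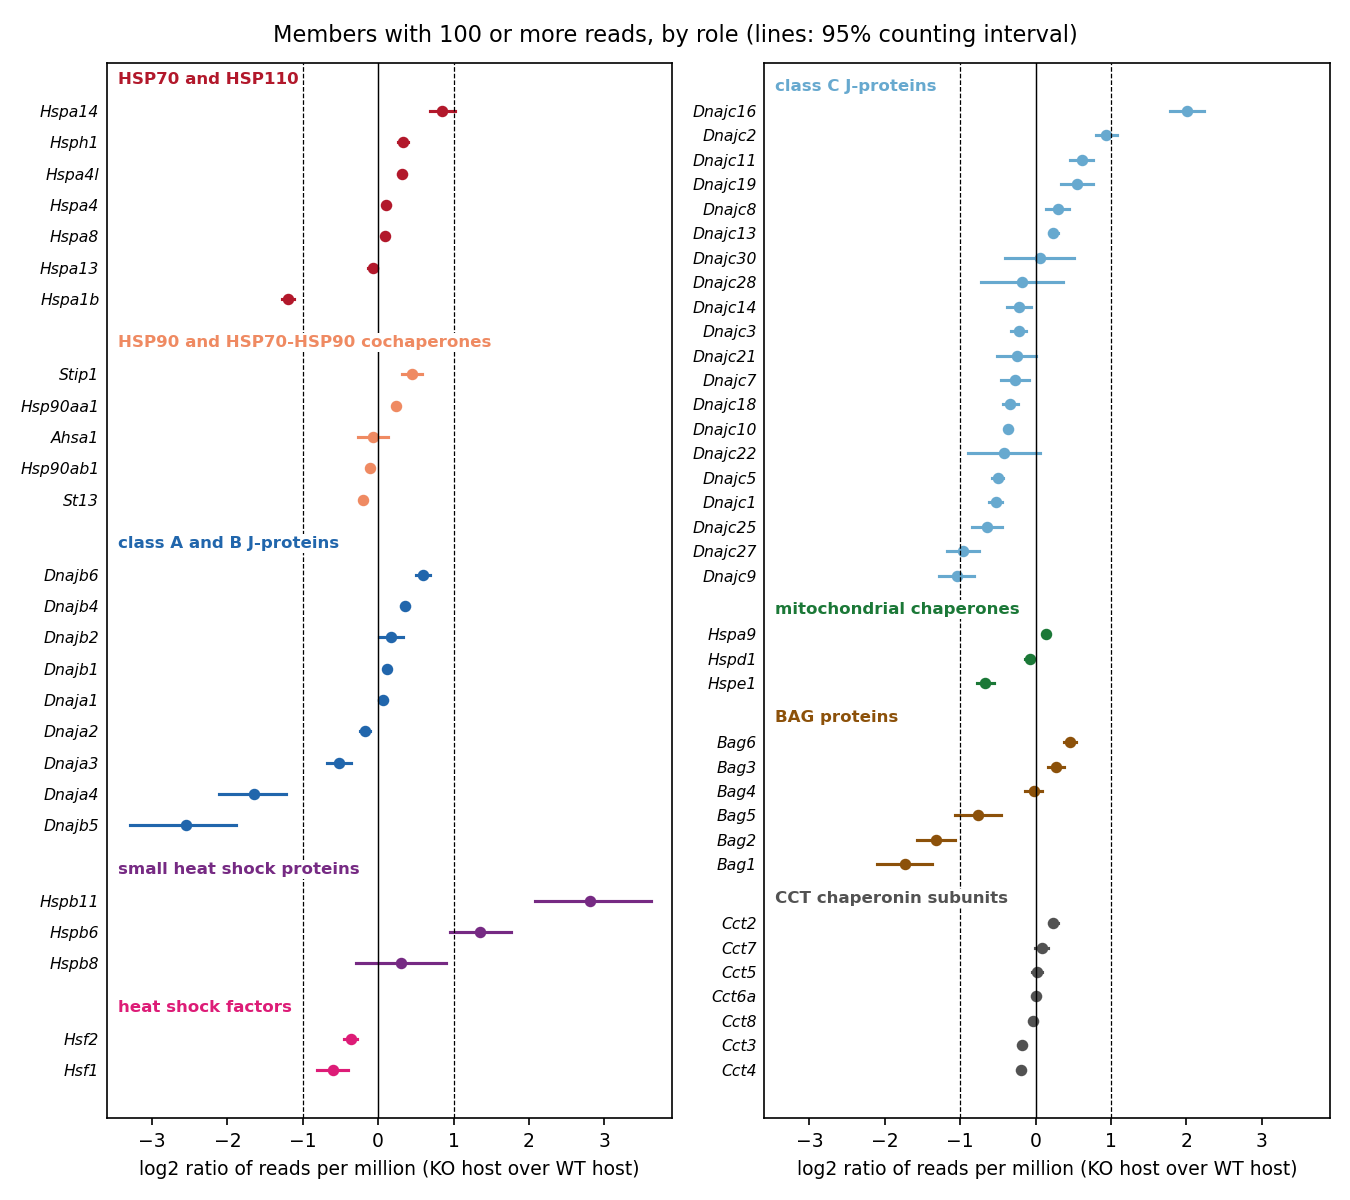
Log2 ratio of RPM, KO host over WT host, for the 62 members with 100 or more reads and reads in both libraries, grouped by role. Points are ratios, lines are 95% counting intervals, and dashed lines mark 2-fold. CCT subunits lie close to 0, while BAG proteins and J-proteins spread to both sides. These roles also differ in depth, and the spread of all genes narrows with depth. Among CCT subunits Cct7 had the fewest reads over both libraries, 4341. Among the BAG proteins and J-proteins shown past 2-fold, Dnajc16 had the most, 990. The part of depth in this contrast was not tested.

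The BAG proteins divided by their read numbers. Bag6, which hands mislocalised membrane proteins to degradation, had 2790 reads in the KO-host library and 2264 in the WT-host library (1.37, 95% counting interval 1.30 to 1.45), and Bag4 had 1263 reads in KO and 1435 in WT (0.981). The other members of low coverage were lower. Bag1 (chromosome 4, 40936398 to 40948295), a nucleotide exchange factor that also binds BCL2, had 81 reads in KO and 299 in WT and was 3.31-fold lower (2.58 to 4.29). Bag2 (chromosome 1, 33784565 to 33796877), an inhibitor of the ubiquitin ligase Stub1 (CHIP), had 183 reads in KO and 509 in WT and was 2.49-fold lower (2.10 to 2.97). Bag5 had 140 reads in KO and 264 in WT (0.591). On the deposited scale Bag1 and Bag2 differed by -0.61 and -0.66, which is under the size rule. Stub1 itself, a gene outside the family, had 385 reads in KO and 713 in WT (0.602).

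CCT subunits stayed within a narrow range. The 7 listed subunits had ratios between 0.874 (Cct4) and 1.17 (Cct2), with a median of 1.01 and a summed level of 1290 RPM in the KO-host library and 1314 RPM in the WT-host library. Cct4 had 5014 reads in the KO-host library and 6399 in the WT-host library, Cct3 had 4748 in KO and 5982 in WT (0.885), Cct8 had 5293 in KO and 6031 in WT (0.979) and Cct2 had 4773 in KO and 4533 in WT. The counting intervals of Cct5, Cct6a, Cct7 and Cct8 spanned 1. Tcp1, the first subunit of the ring, was looked at among the related genes and had 8395 reads in KO and 11327 in WT (0.826). The ring holds its different subunits in equal number. None of them, Tcp1 included, was past 2-fold here. All had 3000 or more reads over both libraries, where few genes of any kind were past 2-fold. The share of all genes was 3.18% from 3000 to under 10000 reads and 2.64% from 10000 reads.

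Mitochondrial chaperones were also close to 1, apart from Hspe1. Hspa9 (mortalin), the mitochondrial HSP70, had 12436 reads in the KO-host library and 12609 in the WT-host library (1.10). Hspd1 (HSP60) had 4129 reads in KO and 4865 in WT (0.946, 95% counting interval 0.908 to 0.987). Hspe1 (HSP10), the lid of the HSP60 chamber, had 997 reads in KO and 1768 in WT (0.629, 0.581 to 0.680). Hspd1 and Hspe1 lie head to head and are known to share a promoter region, and their spans in the table overlap by 112 bases on mm39 chromosome 1 (55116994 to 55127403 and 55127291 to 55130467). The counting intervals of their ratios did not overlap. Both have copies elsewhere, with 33.7% and 29.1% of 75-base stretches also found in other genes.

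The 4 listed genes named Hspb were low in both libraries. Hspb1, which the naming rule would also take, is not among the listed genes. Of the 3 with 100 or more reads, 2 were 2-fold higher in the KO-host library, and 1 of these is Hspb11, which is not a chaperone of this family by function. Hspb6 (Hsp20; chromosome 7, 30251603 to 30254869) had 171 reads in the KO-host library and 75 in the WT-host library, 2.54-fold higher (95% counting interval 1.93 to 3.38). Its span overlaps Lin37 and Proser3 on the opposite strand. Hspb11 (chromosome 4, 107110790 to 107137136) had 112.8 reads in KO and 18 in WT, 6.99-fold higher (4.23 to 12.2), and Hspb8, which works with Bag3, had 53 reads in KO and 48 in WT (1.23, 0.817 to 1.86). Hspb2 was listed at 60 reads in the KO-host library and at 0 in the WT-host library. Hspb2 and Cryab, the alpha B crystallin gene, have spans that overlap by 1030 bases on opposite strands of chromosome 9, and 25.5% of the 75-base stretches of the Hspb2 transcript also occur in Cryab, so reads from those stretches cannot be told apart without strand. Cryab had 216 reads in KO and 96 in WT (2.51, 1.96 to 3.22). The 4 Hspb genes summed to 17.0 RPM in the KO-host library and 5.41 RPM in the WT-host library, a small part of the family, and Hspb6, Hspb8 and Hspb11 lie at the depth where 25.8% of all genes were 2-fold higher.

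Both heat shock factors had lower RPM in the KO-host library. Hsf1 had 311 reads there and 527 in the WT-host library (0.658, 95% counting interval 0.570 to 0.758). Hsf2 had 1853 reads in KO and 2658 in WT (0.777, 0.732 to 0.825). Neither was past 2-fold. Hsf1 is regulated mostly at the protein level, by trimer formation and phosphorylation, which RNA does not report.

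Lists of related genes, drawn up with earlier results of these data known, were set beside the family. Other cytosolic chaperones and cochaperones had a median ratio of 0.930 over 33 genes, with 4 being 2-fold higher (background 8.39%) and 2 being 2-fold lower (background 11.3%), so neither count stands far from the share over all genes. The higher ones were Pfdn6 (108 reads in the KO-host library and 1 in the WT-host library), Aarsd1 (202 in KO and 72 in WT), Cryab and Pfdn1 (581 in KO and 295 in WT), and the lower ones Ppp5c (164 in KO and 429 in WT) and Hsbp1 (535 in KO and 1343 in WT). Pfdn1 and Pfdn6 are subunits of prefoldin, which passes actin to CCT. The other prefoldin subunits of the list did not all go the same way. Pfdn2 was at 1.06, Pfdn5 at 0.883 and Vbp1 at 0.808, and Pfdn4 had 53 reads in KO and 3 in WT. On the deposited scale Pfdn6 (read ratio 120, 95% counting interval 21.2 to 4800) differed by 1.98 and Hsbp1, a binding protein of heat shock factor 1, by -1.03. Ptges3 (p23), the HSP90 cochaperone that closes the cycle, had 6137 reads in the KO-host library and 5840 in the WT-host library (1.17).

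Other known responders to Hsf1, with partners in degradation, had a median ratio of 1.05 over 16 genes, with 0 past 2-fold. Over all genes with 100 or more reads the share past 2-fold was 19.7%. It fell from 55.6% at 100 to under 300 reads to 2.64% from 10000 reads. By the log2 rule 2.31% of all genes were higher and 2.64% lower. These shares are also the background for the lists that follow in this paragraph. The polyubiquitin gene Ubb had 80163 reads in the KO-host library and 83562 in the WT-host library (1.07). Tcim had 21349 reads in KO and 15666 in WT (1.52), and Ier5, known to act on Hsf1, had 5191 in KO and 4030 in WT (1.44). Atf3, a stress-induced transcription factor, had 1102 reads in KO and 623 in WT (1.97). Chaperones of the endoplasmic reticulum and genes of the unfolded protein response had a median of 0.917 over 23 genes. Hspa5 (BiP) had 13330 reads in the KO-host library and 17320 in the WT-host library (0.858). Hsp90b1 (Grp94) had 19951 reads in KO and 21358 in WT (1.04), and P4hb, a disulfide isomerase, had 21116 in KO and 29152 in WT (0.808). Ddit3 (CHOP), a transcription factor of this response, had 353 reads in KO and 1028 in WT, 2.61-fold lower, with a log2 difference of -1.12, the only gene of the list past either rule. The sensor kinase Eif2ak3 (PERK) had 505 reads in KO and 1032 in WT (0.546), and the sensor Atf6 had 3305 in KO and 2527 in WT (1.46). Mitochondrial proteases and cochaperones had a median of 1.02 over 14 genes, with Clpp, a protease subunit, alone past 2-fold (231 reads in the KO-host library and 127 in the WT-host library). Grpel1, a nucleotide exchange factor of Hspa9, had 602 reads in KO and 368 in WT (1.82, 1.60 to 2.08). The protease gene Lonp1 had 826 in KO and 541 in WT (1.70). Grpel2, the paralog of Grpel1, went the other way, with 744 reads in KO and 1390 in WT (0.597, 0.545 to 0.653). Tomm20 was at 0.602 and Hscb at 0.606. Of the 14 genes, 8 were above 1 and 6 below. Yme1l1 (8755 reads in KO and 9456 in WT) and Tomm70a (7993 reads in KO and 8888 in WT) had the most reads of the list, with a ratio of 1.03 for Yme1l1 and a counting interval of 0.973 to 1.03 for Tomm70a.

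**Figure D4:**
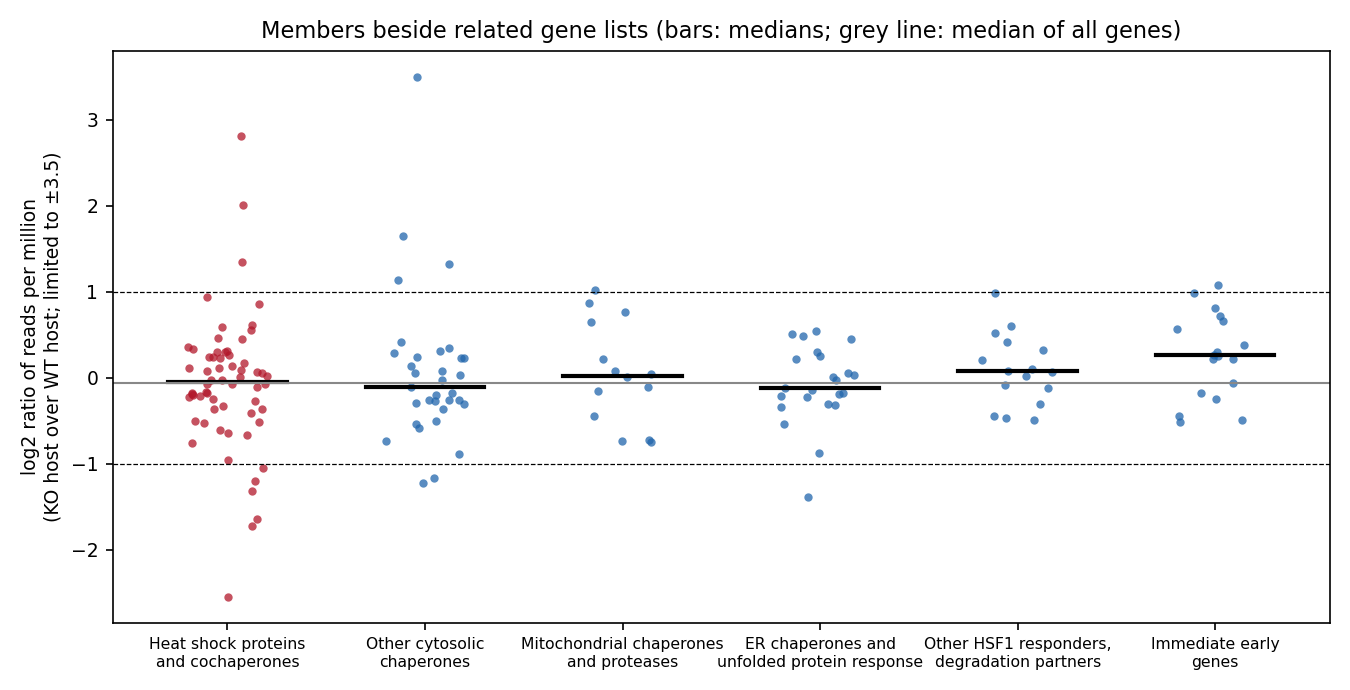
Log2 ratio of RPM, KO host over WT host, for members (red) and 5 lists of related genes (blue), each point a gene with 100 or more reads and values limited to 3.5 in size. Black bars are list medians, the grey line is the median of all genes, and dashed lines mark 2-fold. The medians run from -0.12 for the endoplasmic reticulum list to 0.26 for immediate early genes.

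Heat shock genes and immediate early genes both respond to the dissociation of tissue, so immediate early genes are given beside them. The 18 immediate early genes summed to 14082 RPM in the KO-host library and 11174 RPM in the WT-host library, and 12 were above 1 and 6 below. Fosb had 74206 reads in the KO-host library and 47167 in the WT-host library (1.75), Fos had 49350 in KO and 62131 in WT (0.886), and Egr2, at 1366 reads in KO and 719 in WT, was 2.12-fold higher. Hspa1b was lower where this list was on balance higher, and the part of dissociation in either was not tested.

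Markers of cell types in the sort also differed between the libraries. Vim, the mesenchymal filament gene of the tumour line, had 2907 RPM in the KO-host library and 3170 RPM in the WT-host library, a ratio of 0.917. The other 5 markers of the tumour line and epithelium list were all above 1: Epcam at 3.06, Krt19 at 3.02, Cdh1 at 1.67, Krt18 at 1.57 and Krt8 at 1.42. Of 6 fibroblast markers, 5 were listed and all 5 were below 1, between 0.142 (Col1a1) and 0.966 (Pdgfra), with a sum of 823 RPM in the KO-host library and 2067 RPM in the WT-host library. Of 7 smooth muscle and pericyte markers, 3 were listed and all 3 were below 1, with sums of 85.6 RPM in KO and 383 RPM in WT. Most of both sums came from Pdgfrb (0.205), at 72.3 RPM in KO and 353 RPM in WT. Acta2 was at 0.398. Tagln was at 0.981, with a counting interval of 0.690 to 1.41 that spanned 1. None of the listed markers was at 0 in either library. Leukocyte markers summed to 159 RPM in KO and 141 RPM in WT over 5 of 7 genes, mostly from Lyz2 (1.10), while Cd68 and Fcer1g were at 2.37 and 2.52 with few reads, and Ptprc, which encodes CD45, had 64 reads in KO and 46 in WT. Endothelial markers summed to 14.2 RPM in KO and 18.3 RPM in WT over 3 of 5 genes, but these differed in opposite directions, with Cdh5 at 146 reads in KO and 1 in WT, Plvap at 58 reads in KO and 348 in WT, and Pecam1 at 128 reads in KO and 129 in WT. Summed values were also low for erythroid markers, at 2.31 RPM in KO and 3.72 RPM in WT over 1 of 3, and for adipocyte markers, at 0.900 RPM in KO and 0.194 RPM in WT over 2 of 4. Of the 6 skeletal muscle markers, 0 were listed. Fewer cells of a type and less RNA per cell cannot be told apart in such libraries, and the part of cell makeup in the values of Hspa1b, Bag1, Bag2 or the small heat shock proteins was not tested.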

How the data were processed

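RNA of sorted CD45-negative cells was depleted of ribosomal RNA and made into PrepX libraries, per the labels' protocols. STAR 2.7.8a, Partek and mm39 are named in the submitters' processing notes. The deposited values are log2 of FPKM + 1, per the file headers and name, with 1 column per library; the sources used here do not give the annotation release, counting rule or strand handling. In 100% of genes the length column equals stop minus start, so the authors' FPKM uses the genomic span.

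Reads were recovered as the total at which low values are whole multiples of 1 read: 83.4% (KO host) and 84.9% (WT host) of values under 1000 reads were whole within 0.1 read. This step was tested on simulated data. Ratios are of RPM, KO host over WT host, with exact conditional binomial (Clopper-Pearson) intervals that cover counting error only; no molecular identifiers are named, so reads may be copies of 1 molecule. No ratio is given for a gene listed at 0. Levels per kilobase and shared 75-base stretches used GENCODE M21 transcripts matched by gene ID, found for 69 of the 70 members. Any member could be named. Full values were given for those past a rule. In each class or related list they also cover the 3 with the largest ratio in size and the 2 with the most reads. Stub1, Hspa5, Pfdn2, Pfdn4, Pfdn5, Vbp1, Grpel2, Tomm20 and Hscb were added after their values were seen. Members and lists were chosen with earlier results of these data known. Python 3.11.15, numpy 2.4.6, pandas 2.3.3 and scipy 1.17.1 were used.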

Additional observations from a re-analysis of the deposited data

How the results depend on the processing

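The count of members past the log2 size rule was 1 and stayed 1 with 5 added in place of 1, with a mean log2 of 3 or more, after quantile normalization and after centring on the median of all genes. It was 4 with 0.1 added (1 higher, Hspb6, and 3 lower, Hspa1b, Bag2 and Dnajc9), 2 with no filter on low values (1 higher, Hspb2, and 1 lower), 0 with whole reads only and 5 at a 1.5-fold difference. The log2 difference of Hspa1b ran from -1.19 to -1.07 over these settings. The count past the read-ratio rule was 9; it was 1 (Hspa1b) with 1000 or more reads, 18 at 1.5-fold, 13 with no filter, 8 after centring and 6 with whole reads only. These settings by construction shrink low values less (0.1 added), test other genes (filters, whole reads) or move the threshold (1.5-fold). Medians of the family, of its classes and of the related lists kept within the 95% order-statistic interval of the reported median in every setting. For classes of 8 or fewer genes that interval is their whole range, so this check could hardly fail for them. For single members, 51 of 238 values moved by more than 0.5 of the width of their counting interval. Of those past 2-fold, 0 changed direction, but for most settings this was fixed in advance. A changed added constant cannot alter the sign of a difference. Centring removed medians of only -0.03 (log2 values) and -0.06 (log2 read ratios). No paired analysis was possible because each group has 1 library, and no library could be left out for the same reason. Depth limits the small heat shock proteins, Bag1, Bag2, Dnaja4, Dnajb5, Dnajc9 and Dnajc16, which have under 1000 reads over both libraries.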
